A study of Mus musculus with 20 samples.

Results

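Mast cell genes were described in mouse eWAT, the white fat pad of the epididymis, across 20 libraries of polyA RNA. The genes were 9 of the 55401 in the count table, found by their symbols: the chymases Mcpt4 and Cma1, the tryptases Tpsb2 and Tpsab1, the carboxypeptidase Cpa3, the receptor genes Kit, Ms4a2 and Fcer1a, and the histamine-making enzyme Hdc. They were chosen by cell type and selected on their diet contrast in these libraries, so the levels and fold changes by diet are a description without a test. The libraries form 2 diet groups of 10: Restricted, which the labels call Random Food Restriction and which joins intermittent fasting to 5% calorie restriction, and Control, on the control diet. A second label reports contamination with spermatocytes, male germ cells in meiosis, and reads Yes for 3 Restricted and 7 Control libraries, No for 7 Restricted and 3 Control libraries. The labels used here give no strain, sex or age, and do not say which libraries came from separate animals, so a p-value here reflects the variation among these libraries, part of which may be technical. The study is presented as one on food insecurity and fat mass, and the diet contrast asks which transcripts of the fat pad differ with restriction.

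Mast cells are tissue-resident cells of the blood lineage that sit around vessels in connective tissue, white fat included. Their granules hold histamine bound to proteoglycans together with chymases, tryptases and carboxypeptidase A3, and the cells release them when IgE on the high-affinity IgE receptor is cross-linked. Stem cell factor, acting on the receptor KIT, keeps them alive, and GATA2 and MITF are transcription factors of their granule genes. In bulk tissue, fewer mast cells and less mast cell RNA per cell cannot be told apart.

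The genes lie at 7 loci of the mouse genome build GRCm38. Mcpt4 (ENSMUSG00000061068.7, chr14:56059629-56062313) and Cma1 (ENSMUSG00000022225.7, chr14:55941451-55944675) lie on the minus strand of the chymase locus of chromosome 14. Tpsb2 (ENSMUSG00000033825.10, chr17:25366305-25369098, plus strand) and Tpsab1 (ENSMUSG00000024173.11, chr17:25343245-25345527, minus strand) lie in the tryptase locus of chromosome 17. Cpa3 (ENSMUSG00000001865.2) spans chr3:20215620-20242181 on the minus strand, Kit (ENSMUSG00000005672.12) spans chr5:75574916-75656722 on the plus strand, and Hdc (ENSMUSG00000027360.5) spans chr2:126593667-126619299 on the minus strand. Ms4a2 (ENSMUSG00000024680.12, chr19:11615523-11623684) and Fcer1a (ENSMUSG00000005339.10, chr1:173221284-173227214), both on the minus strand, encode chains of the high-affinity IgE receptor. None of the 9 overlapped an annotated gene on the other strand. Mcpt4 and Cma1 share part of their sequence with other genes: 5.11% of the 52-base windows of Mcpt4 and 5% of those of Cma1 also occurred in another gene, so reads from those stretches could be split, while no window of Tpsb2, Tpsab1, Cpa3, Kit or Fcer1a did.

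RefSeq promoters of the build GRCm38.p6 were at hand for 7 of the 9 genes. The 250 bases before the start of 5 of them are shown, 5′ to 3′ on the gene's own strand, because these genes show the range of diet and label differences described here: the chymases and Cpa3, which differed with diet, and Kit and Hdc, whose diet groups overlapped. Capitals mark hexamers that GATA factors bind, which read AGATAA in one form, AGATAG in another, TGATAA in the next and TGATAG in the last, searched on both strands, so that a match on the other strand of Cma1 appears as CTATCT. For Hdc, Kit and Mcpt4 the RefSeq start lies inside the gene span of the count table, so their windows overlap that span.
Mcpt4, chr14:56062311-56062560, minus strand: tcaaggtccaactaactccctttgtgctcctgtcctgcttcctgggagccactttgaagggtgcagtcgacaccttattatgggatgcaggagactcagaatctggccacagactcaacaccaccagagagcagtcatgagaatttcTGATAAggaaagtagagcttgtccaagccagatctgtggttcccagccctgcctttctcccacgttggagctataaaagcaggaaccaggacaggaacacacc
Cma1, chr14:55944676-55944925, minus strand: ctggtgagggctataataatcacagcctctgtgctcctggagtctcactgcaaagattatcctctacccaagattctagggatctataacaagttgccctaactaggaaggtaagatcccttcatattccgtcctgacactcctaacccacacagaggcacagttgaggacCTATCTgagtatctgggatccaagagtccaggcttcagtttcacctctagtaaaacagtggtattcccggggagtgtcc
Cpa3, chr3:20242182-20242431, minus strand: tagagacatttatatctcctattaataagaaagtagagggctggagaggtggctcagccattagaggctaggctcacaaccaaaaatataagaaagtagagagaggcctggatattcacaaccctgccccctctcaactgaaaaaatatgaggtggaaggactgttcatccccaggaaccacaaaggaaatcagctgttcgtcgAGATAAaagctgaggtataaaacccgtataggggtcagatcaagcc
Kit, chr5:75574737-75574986, plus strand: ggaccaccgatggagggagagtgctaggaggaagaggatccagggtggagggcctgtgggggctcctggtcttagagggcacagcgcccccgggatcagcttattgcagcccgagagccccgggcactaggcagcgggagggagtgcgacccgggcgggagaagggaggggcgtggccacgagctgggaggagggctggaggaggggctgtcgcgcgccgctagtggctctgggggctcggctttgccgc
Hdc, chr2:126618679-126618928, minus strand: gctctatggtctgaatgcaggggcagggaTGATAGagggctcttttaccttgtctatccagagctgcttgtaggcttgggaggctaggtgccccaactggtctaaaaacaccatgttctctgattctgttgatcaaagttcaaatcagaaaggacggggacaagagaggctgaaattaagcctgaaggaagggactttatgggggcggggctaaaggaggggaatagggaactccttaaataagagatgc

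A GATA hexamer was present in 6 of the 7 promoters, against 27.1% of 27025 mouse promoters of the same length. Mcpt4 has it 103 to 98 bases before the start, Cma1 79 to 74 bases before on the other strand, Cpa3 46 to 41 bases before, and Hdc 221 to 216 bases before. Ms4a2 has 3 matches and Fcer1a has 1. Kit has none in this window. The E-box letters CACATG or CACGTG, of the kind MITF binds, occurred in 1 of the 7, Fcer1a, against 17.6% of all promoters. These matches describe letters and not occupied sites.

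The libraries held 18291602 to 44061508 counts in the Restricted group and 14306528 to 38789768 in the Control group. The 9 genes together took 648 to 1375 counts per Restricted library and 772 to 2466 per Control library, so their values carry visible counting error. RNA integrity numbers averaged 7.18 ± 0.399 in Restricted (SD, n = 8) and 7.41 ± 0.267 in Control libraries (SD, n = 9). Markers of adipocytes summed to 26070 to 33160 CPM (read counts divided by the TMM-scaled library size in megareads) in Restricted and 22230 to 27960 CPM in Control libraries. Markers of skeletal muscle, a tissue outside the fat pad, ranged from 61.9 to 1639 CPM in Restricted and from 60.1 to 1132 CPM in Control libraries. The 6 highest were Restricted 1 at 1639 CPM and Control 1 to 5 at 411.5 to 1132 CPM, and the other 14 libraries held 153.5 CPM or less. Their part in the diet differences was not tested beyond leaving these 6 libraries out. All 9 mast cell genes had counts in both diets, and 7 of them were among the 15986 genes that passed the filter on low counts.

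The granule proteases were lower in Restricted libraries. Mcpt4, the chymase of connective tissue mast cells, had a lowest, median and highest level of 2.75, 3.93 and 5.26 CPM in Restricted libraries, against 8.97, 10.1 and 16.1 CPM in Control libraries. Every Restricted library lay below every Control library. The log2 fold change, Restricted over Control with the contamination label in the model, was −1.49 ± 0.14 (SE, n = 10 each). Cma1, a chymase gene of the same locus, had 2.80, 3.80 and 5.66 CPM in Restricted against 6.54, 9.75 and 14.6 CPM in Control libraries. The groups again did not overlap, and the log2 fold change was −1.36 ± 0.15. The largest Control value of both genes came from Control 7, a library marked No, and the lowest Restricted value of both from Restricted 9.

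Of the tryptases, which are stored as complexes with heparin, Tpsb2 carried nearly all counts. Tpsb2 had 3.60, 5.199 and 6.75 CPM in Restricted libraries, against 10.04, 13.8 and 20.6 CPM in Control libraries, with a log2 fold change of −1.36 ± 0.14. No Restricted library reached the lowest Control library. Tpsab1, the neighbouring tryptase gene, was near the limit of the counting, with 0.176, 0.324 and 0.733 CPM in Restricted libraries against 0.580, 0.775 and 1.38 CPM in Control libraries. Its groups overlapped, and its log2 fold change was −1.05 ± 0.27. Tpsab1 exceeded the low-count limit of 0.437 CPM in 3 Restricted and 10 Control libraries, so it entered the fit through the Control group. Among the libraries marked Yes its log2 fold change was −0.42, and among those marked No −1.64. Without the 6 libraries with muscle transcripts Tpsab1 was not called, at a fold change of −1.06 ± 0.33, nor was it with the RNA integrity number as a term, at −0.83 ± 0.35.

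Cpa3, the carboxypeptidase that trims peptides and toxins in the granule, had 2.34, 3.47 and 4.17 CPM in Restricted libraries, against 4.61, 6.17 and 7.97 CPM in Control libraries. The groups did not overlap, and the gap was smaller than for the chymases, with a log2 fold change of −0.91 ± 0.13. At an adjusted p under 0.05 in edgeR's quasi-likelihood test, 5 of the 7 tested mast cell genes were lower and 0 were higher, where 7.21% of all tested genes were lower, 6.13% were higher, 13.3% were called in either direction and 28% had an unadjusted p under 0.05. For 4 of the 7 (Mcpt4, Cma1, Tpsb2 and Cpa3) all Restricted libraries lay below all Control libraries, a pattern held by 0.588% of all tested genes, while 0.363% showed the opposite pattern and none of the 7 did. Since this contrast chose the genes, nothing is read from these counts.

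**Figure D1:**
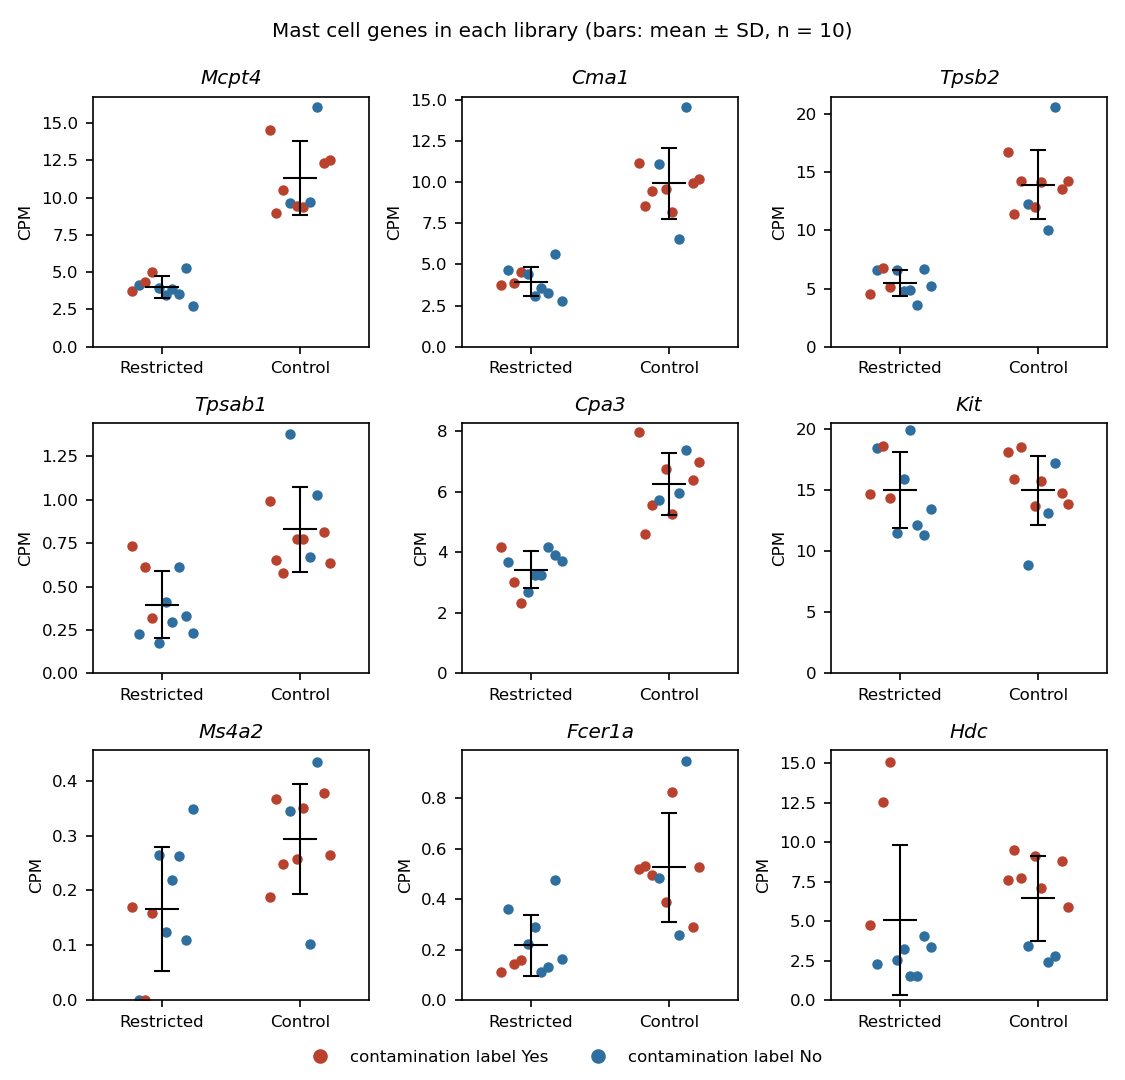
Level of each of the 9 mast cell genes in every library, in CPM on linear axes that start at 0, with Restricted left of Control. Points are libraries, red for contamination label Yes and blue for No, and bars are the mean ± SD of 10 libraries. Mcpt4, Cma1, Tpsb2 and Cpa3 do not overlap between the diets, Kit overlaps fully, and Hdc separates by the contamination label.

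The receptor genes did not share one pattern. Kit, the receptor for stem cell factor, which other cells besides mast cells also carry, had 11.3, 14.5 and 19.9 CPM in Restricted libraries against 8.83, 15.3 and 18.5 CPM in Control libraries. The groups overlapped almost fully, with means of 15.0 ± 3.10 CPM in Restricted and 15.0 ± 2.83 CPM in Control libraries (SD, n = 10 each) and a log2 fold change of 0.08 ± 0.13. Control 3 had the lowest value of all 20 libraries, and Restricted 6 the highest.

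The chains of the IgE receptor were scarce. Fcer1a, the chain that binds IgE, had 2 to 13 reads per Restricted library with a median of 4, and 5 to 33 per Control library with a median of 10.5. The reads summed to 54 in Restricted and 134 in Control libraries, and the groups overlapped at 0.216 ± 0.122 CPM in Restricted and 0.527 ± 0.215 CPM in Control libraries. Ms4a2, the chain that amplifies the signal, had 0 to 15 reads in Restricted libraries, 45 in all, and 2 to 14 in Control libraries, 75 in all. It was at 0 in 2 Restricted libraries and its groups overlapped. Neither passed the low-count filter, Fcer1a with 1 Restricted and 7 Control libraries past the limit and Ms4a2 with none. Fitted without the filter, the log2 fold changes were −1.47 ± 0.38 for Fcer1a and −0.96 ± 0.51 for Ms4a2.

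Hdc, which makes histamine from histidine and is also active in some other cell types, did not separate by diet. It had 1.49, 3.29 and 15.1 CPM in Restricted libraries, against 2.42, 7.34 and 9.50 CPM in Control libraries. The Restricted range enclosed the Control range, and the log2 fold change with the contamination label in the model was 0.19 ± 0.21. Without the label in the model it was −0.36 ± 0.42, so its direction depends on that term.

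Levels were compared between genes as CPM per kilobase of the gene length in the count table. In Restricted libraries the highest mean levels were Cma1 at 3.63, Mcpt4 at 3.62 and Tpsb2 at 3.43 CPM per kilobase, which lay within their SDs of each other, followed by Cpa3 at 2.26 and Kit at 1.69. In Control libraries Mcpt4 came first at 10.2 CPM per kilobase, followed by Cma1 at 9.10, Tpsb2 at 8.73, Cpa3 at 4.12 and Kit at 1.68. Below these stood, in Restricted libraries, Hdc at 0.795, Fcer1a at 0.217, Tpsab1 at 0.189 and Ms4a2 at 0.0590 CPM per kilobase. In Control libraries the same 4 genes stood at 1.01 (Hdc), 0.528 (Fcer1a), 0.396 (Tpsab1) and 0.104 CPM per kilobase (Ms4a2). The steps between Mcpt4, Cma1 and Tpsb2 in Control libraries were smaller than their SDs of 2.22, 1.97 and 1.88.

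The shares of the proteases within each library show which proteases made up the mast cell signal of each library. Of the length-scaled counts of the 5 proteases, Cpa3 took 11.4% to 24.0% in Restricted libraries, on average 17.5% ± 4.22, and 10.6% to 15.6% in Control libraries, on average 12.8% ± 1.56 (SD, n = 10 each). Mcpt4 took 27.5% ± 2.65 in Restricted and 31.3% ± 2.17 in Control libraries. The ranges overlapped for both genes. Cma1 took 27.4% ± 2.50 in Restricted and 27.9% ± 2.52 in Control libraries, and Tpsb2 took 26.1% ± 3.63 in Restricted and 26.8% ± 1.98 in Control libraries. Tpsab1 took 1.47% ± 0.767 in Restricted and 1.23% ± 0.345 in Control libraries. The ratio of chymase to tryptase levels per length was 2.02 ± 0.340 in Restricted and 2.12 ± 0.169 in Control libraries, a difference within the SDs. These shares come from the same counts as the diet contrast and are therefore a description.

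**Figure D2:**
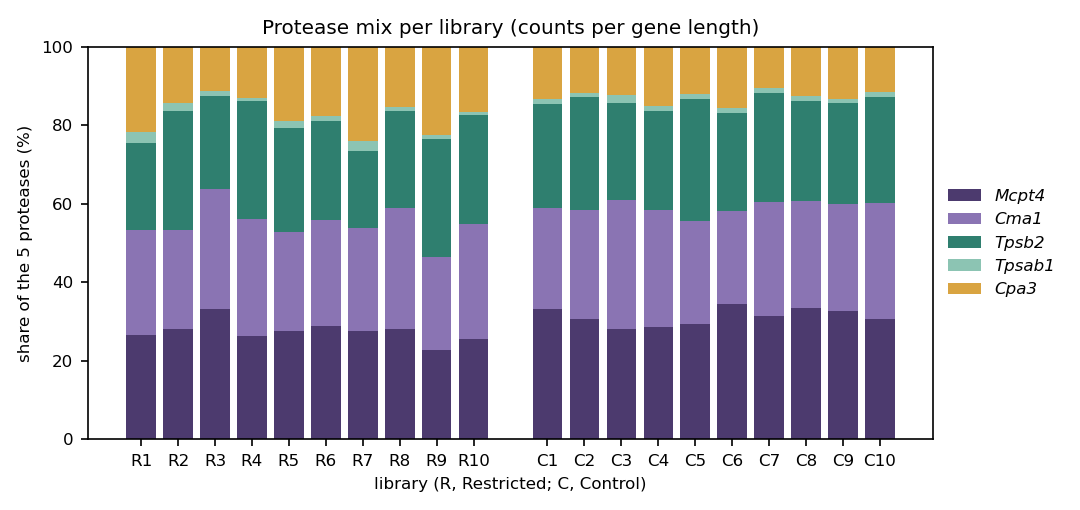
Share of each of the 5 granule proteases in their summed counts per gene length, in percent, for each library (R1 to R10 Restricted, C1 to C10 Control). Cpa3, at the top of the bars, spans 11.4% to 24.0% in Restricted and 10.6% to 15.6% in Control libraries.

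The contamination label, which was not used to choose the genes, separated one of them. Hdc was higher in libraries marked Yes, with 4.74, 8.28 and 15.1 CPM, than in those marked No, with 1.49, 2.64 and 4.05 CPM. All 10 Yes libraries lay above all 10 No libraries. The log2 fold change, Yes over No with the diet in the model, was 1.77 ± 0.21 (adjusted p = 2.31e-06 by edgeR's quasi-likelihood test with Benjamini-Hochberg adjustment over all tested genes). A two-sided exact permutation test of log2(CPM + 0.1) that kept the diet fixed gave p = 6.94e-05, the smallest it can give over 14400 arrangements, and 0.000625 adjusted over the 9 genes. The difference held within each diet: 4.74, 12.6 and 15.1 CPM in the 3 Restricted libraries marked Yes against 2.63 ± 0.965 CPM in the 7 marked No, and 7.97 ± 1.26 CPM in the 7 Control libraries marked Yes against 2.88 ± 0.524 CPM in the 3 marked No (SD).

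None of the other 6 tested mast cell genes was called by the label, so 1 of 7 was, where 5.27% of all tested genes were (5.02% higher and 0.25% lower) and 2.04% had all Yes libraries above all No libraries. The label's log2 fold change was 0.03 ± 0.14 for Mcpt4 (adjusted p = 0.967), −0.09 ± 0.13 for Cpa3 (adjusted p = 0.837) and 0.19 ± 0.13 for Kit (adjusted p = 0.615). Mcpt4 averaged 4.35 ± 0.637 CPM in Restricted libraries marked Yes (n = 3) and 3.86 ± 0.771 CPM in those marked No (n = 7), and 11.1 ± 2.08 CPM in Control libraries marked Yes (n = 7) and 11.8 ± 3.70 CPM in those marked No (n = 3). Within each diet the values of Yes and No libraries overlapped. Spata18, a gene of the germ cell list, was higher in Yes libraries, at a label fold change of 4.34 in log2 units. It had at least 1.53 CPM in Yes libraries and a median of 0.0345 CPM in No libraries, of which 5 were at 0. Spata18 thus passed the low-count filter mainly through the Yes libraries, and its values are a description. Sycp3, the other tested gene of that list, stood at 0.03 ± 0.24 by label (adjusted p = 0.982) and was higher with restriction, at 5.21 ± 2.82 CPM in Restricted and 2.03 ± 0.514 CPM in Control libraries (log2 fold change 1.37, adjusted p = 0.000815). The 9 germ cell markers summed to 4.03 to 100.3 CPM in Yes and 2.69 to 34.1 CPM in No libraries. Their part in the level of Hdc was not tested.

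**Figure D3:**
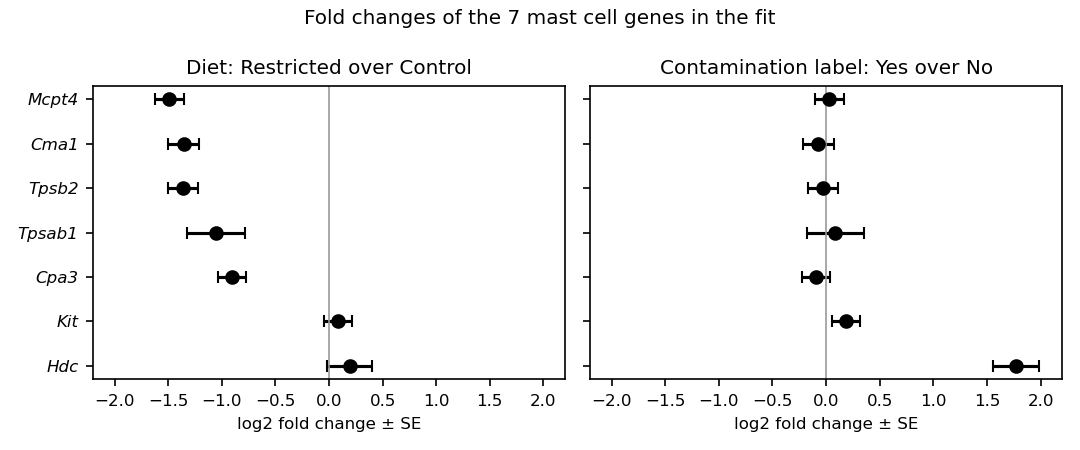
Log2 fold changes of the 7 mast cell genes in the fit, with the SE as bars, by diet (Restricted over Control, left) and by contamination label (Yes over No, right). The proteases lie between −1.49 and −0.91 by diet and near 0 by label, while Hdc lies at 0.19 by diet and 1.77 by label.

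Whether the diet difference itself differed between the labels was tested for the same 7 genes. The product of diet and label was called for 0 of the 7 genes and for 0 (0%) of all tested genes in edgeR's quasi-likelihood test, and DESeq2 called 0 of the 7 and 1 of all. An unadjusted p under 0.05 was found for 1 of the 7 and for 841 (5.26%) of all tested genes. The lowest unadjusted p among the 7 was 0.0215 for Tpsab1, with a product term of 1.21 ± 0.49 on the log2 scale (adjusted p = 0.874).

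The genes' likeness was measured by Pearson's r of log2 CPM over the 20 libraries after the mean of each diet and label group was taken out, so that neither contrast enters. The points share library depth and scaling, and r is given as a description. Mcpt4 and Cma1 had an r of 0.82, which made Cma1 the rank 2 gene of Mcpt4 among 15985. Mcpt4 and Tpsb2 had an r of 0.69 and Cma1 and Tpsb2 an r of 0.74. Over all 20 libraries Cpa3 had an r of 0.28 to Mcpt4, 0.18 to Cma1 and 0.09 to Tpsb2. It was nearest to Tpsab1 among the mast cell genes, at 0.56, though Tpsab1 had only 4 to 14 reads per Restricted library. Kit had r values of −0.21 to 0.33 and Hdc of −0.42 to 0.33 with the other 6 genes. The values split by diet. Over the 10 Restricted libraries Cpa3 had an r of −0.29 to Mcpt4, −0.19 to Cma1, −0.36 to Tpsb2 and 0.71 to Tpsab1. Over the 10 Control libraries Cpa3 had an r of 0.81 to Mcpt4, 0.57 to Cma1, 0.59 to Tpsb2 and 0.33 to Tpsab1. Mcpt4 and Cma1 had 0.93 over the Restricted and 0.74 over the Control libraries. The difference between the diets was not tested.

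**Figure D4:**
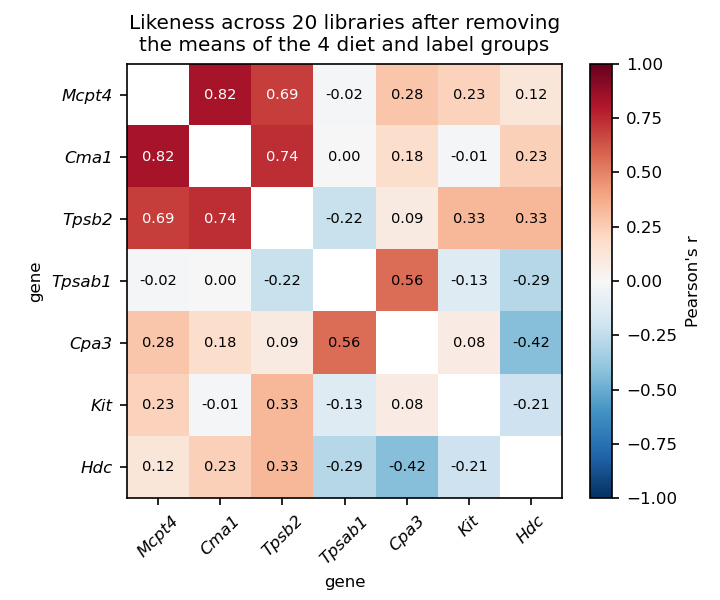
Pearson's r between the 7 tested mast cell genes over 20 libraries, after removal of the 4 diet and label group means, on a colour scale of −1 to 1. Mcpt4, Cma1 and Tpsb2 form a block of 0.69 to 0.82, and Cpa3 is at 0.28 or below with each of the 3.

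Across all tested genes, those most like Mcpt4 included Cma1 (0.82), 4930512J16Rik (0.75), Dpep1 (0.75) and Zrsr1 (0.74). The 5 most like Cpa3 were Gm10642 (0.77), Rgs19 (0.77), Smg8 (0.76), Hif1an (0.75) and Ap2b1 (0.75), so no other granule protease was among them. The genes most like Hdc, named after their values were seen, were Scnn1a (0.87), Eva1c (0.86) and Efhb (0.86). Of these, Scnn1a and Efhb were also higher in Yes libraries, with label fold changes of 1.88 (adjusted p = 7.26e-06) and 1.35 (adjusted p = 0.00447), and Eva1c was not called, at 0.03.

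Genes of mast cells outside the 9 followed the proteases in part. Of 30 such genes, written down with earlier results of these data known, 18 were tested, 8 fell and 0 rose, where 7.21% of all tested genes were lower. The median log2 fold change of the 18 was −0.32, against 0.01 over all tested genes. Il1rl1, the receptor for interleukin-33, had 4.85, 6.39 and 7.71 CPM in Restricted libraries against 7.68, 8.42 and 12.1 CPM in Control libraries, an overlap at the edge, and fell by 0.63 ± 0.09 in log2 units (adjusted p = 0.000129). Slc6a4, the serotonin transporter, had 0.991, 1.63 and 2.81 CPM in Restricted against 2.03, 2.79 and 4.42 CPM in Control libraries and fell by 0.98 ± 0.21 (adjusted p = 0.00314). The groups of Slc6a4 overlapped. Slc45a3, a solute carrier, averaged 2.77 ± 0.642 CPM in Restricted and 5.01 ± 1.43 CPM in Control libraries and fell by 0.80 ± 0.18 (adjusted p = 0.00429). Mrgprb1, a receptor of the Mas-related family, averaged 0.532 ± 0.179 CPM in Restricted and 0.927 ± 0.288 CPM in Control libraries, lower by 1.01 ± 0.22 in log2 units. All 10 Control libraries and only a part of the Restricted ones held Mrgprb1 above the low-count limit, so it passed through the Control group. It is counted among the 8, and its values are a description.

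From which cells of the fat pad the transcripts of Il1rl1, Slc6a4, Slc45a3 and Mrgprb1 came was not tested. The other 4 called genes were smaller changes in genes that many cells express. Maob, a monoamine oxidase, changed by −0.35 ± 0.08 (adjusted p = 0.00865), Ptgs1, a cyclooxygenase, by −0.35 ± 0.10 (adjusted p = 0.0277), Alox5, the 5-lipoxygenase of leukotriene synthesis, by −0.34 ± 0.11 (adjusted p = 0.0343), and Ndst2, which sulphates heparin, by −0.18 ± 0.06 (adjusted p = 0.0447). The calls of Ptgs1, Alox5 and Ndst2 depended on single libraries. Ptgs1 was not called without Restricted 1 (adjusted p = 0.0740), Restricted 2 (0.0611) or Control 3 (0.0656), and Alox5 without Restricted 1 (0.0755), Restricted 5 (0.0536), Control 3 (0.114), Control 7 (0.0805) or Control 10 (0.0511). Ndst2 was not called when any of Restricted 1, 2, 4, 5, 7, 9 and 10 or Control 1, 2, 3, 5, 6, 7, 9 and 10 was left out (adjusted p of 0.0521 to 0.116). With the RNA integrity number as a term in 17 libraries, 1 of the 18 was called (Il1rl1), against 6 of 18 in the same 17 libraries without it; of all tested genes, 2.41% were called with the term and 8.69% without it. Without the 6 libraries with muscle transcripts, 4 of 19 were called, and Mrgprb1 (adjusted p = 0.0644), Slc6a4 (0.0555), Ptgs1 (0.285), Alox5 (0.150) and Ndst2 (0.202) were not. The share of all tested genes called without these 6 libraries is given with the signalling genes below.

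Other tested genes of the list did not pass. Gata2 stood at a log2 fold change of −0.25 ± 0.13 (adjusted p = 0.197) and Mitf at 0.08 ± 0.17 (adjusted p = 0.809). Slc18a2, which loads amines into granules, had −0.60 ± 0.26 (adjusted p = 0.130), Srgn, the granule proteoglycan serglycin, −0.19 ± 0.07 (adjusted p = 0.0785), and Cyp11a1 −1.12 ± 0.40 (adjusted p = 0.0635). Mcpt1, a chymase gene of mucosal mast cells, and Mcpt9 had 0 counts in all libraries, and Mcpt2 had 0 in Restricted and 1 in Control libraries. Among the other scarce genes, Mrgprb2, the receptor for basic secretagogues, had 30 reads in Restricted and 104 in Control libraries. The transmembrane tryptase Tpsg1 had 23 in Restricted and 54 in Control libraries, and the serotonin-making enzyme Tph1 had 50 in Restricted and 83 in Control libraries. The adenosine receptor Adora3 had 64 in Restricted and 106 in Control libraries, and Gata1 had 7 in Restricted and 20 in Control libraries. None of the 18 tested genes was called by the contamination label in edgeR's quasi-likelihood test, where 5.27% of all tested genes were. An unadjusted p under 0.05 was found for 4 (Mrgprb1, Il1rl1, Ptgs1 and Cd55), where 13.3% of all tested genes had one. DESeq2 called 1 of the 18 by label (Il1rl1).

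**Figure D5:**
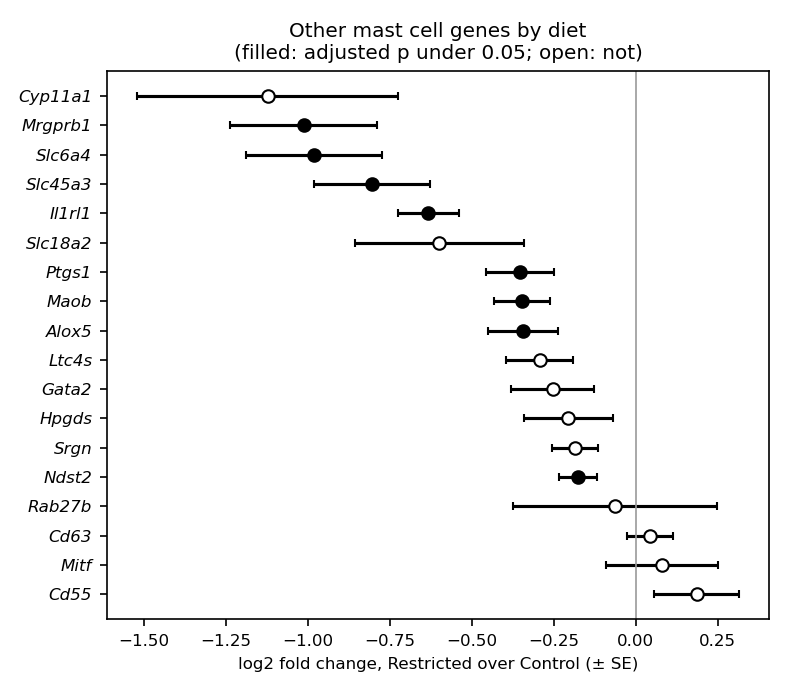
Log2 fold changes by diet (Restricted over Control) of the 18 tested mast cell genes outside the 9, with the SE as bars and filled points for an adjusted p under 0.05. The called genes run from Mrgprb1 at −1.01 to Ndst2 at −0.18, and none of the genes to the right of 0 is called.

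The chymase and tryptase loci held few other transcripts. Of the 15 listed genes of the chymase locus, 5 had no counts in any library (Mcpt1, Mcpt9, Gzmd, Gzme and Gzmg). The granzyme gene Gzmb, of cytotoxic lymphocytes, had 81 reads in Restricted and 138 in Control libraries, and Ctsg, cathepsin G, had 12 in Restricted and 23 in Control libraries. The rest were scarcer: in Restricted libraries Gzmc had 4 reads, Cma2 had 2, Gzmn had 5, and Gzmf and Mcpt8 had 0. In Control libraries Gzmc had 16, Cma2 had 13, Gzmn had 3, Gzmf had 2 and Mcpt8 had 3. Of the tryptase locus, Prss34 had 57 reads in Restricted and 155 in Control libraries. Prss29 had 3 in Restricted and 9 in Control libraries, and Prss28 had 0 in Restricted and 7 in Control libraries. Each of these sums was far below that of Mcpt4, which was 967 in Restricted and 2768 in Control libraries.

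Basophils share the IgE receptor and Hdc with mast cells. Of 5 basophil markers, 2 were tested and 0 were called in edgeR's quasi-likelihood test or by DESeq2: Itga2 at −0.10 ± 0.20 (adjusted p = 0.789) and Il3ra at −0.15 ± 0.13 (adjusted p = 0.510), of which 0 had an unadjusted p under 0.05. The defining basophil protease Mcpt8 was at 0 in all Restricted libraries and had at most 1 read in a Control library. Cd200r3 had 18 reads in Restricted and 68 in Control libraries, and Prss34, also on this list, had 57 in Restricted and 155 in Control libraries. Mcpt8, Cd200r3 and Prss34 did not pass the low-count filter, so the count of called markers covers only Itga2 and Il3ra. The basophil list summed to 10.2 to 20.3 CPM in Restricted and 14.4 to 21.9 CPM in Control libraries, most of it from Il3ra. Macrophage markers were lower too: 11 of 11 fell, where 7.21% of all tested genes were lower, with sums of 1118 to 1740 CPM in Restricted and 1530 to 2059 CPM in Control libraries and a median log2 fold change of −0.49. With the RNA integrity number as a term in 17 libraries 5 of the 11 fell, against 10 without it. The share of all tested genes called was also lower with that term, as given above. Of 6 progenitor markers 2 fell, Dcn (−0.60, adjusted p = 2.89e-05) and Pdgfra (−0.61, adjusted p = 7.94e-05), with list sums of 949.7 to 1456 CPM in Restricted and 1467 to 2015 CPM in Control libraries, which did not overlap. The part of these cells in the changes of genes they share with mast cells was not tested.

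Signalling genes below the IgE receptor are among those shared. Of 16 tested, 9 fell and 0 rose, where 7.21% of all tested genes were lower, with a median log2 fold change of −0.41. Fcer1g, the chain that passes on the signal of several Fc receptors, averaged 23.1 ± 2.67 CPM in Restricted and 30.6 ± 3.18 CPM in Control libraries and fell by 0.45 ± 0.07 in log2 units (adjusted p = 0.000270). The kinase gene Syk averaged 36.8 ± 7.62 CPM in Restricted and 50.7 ± 6.83 CPM in Control libraries and fell by 0.54 ± 0.10 (adjusted p = 0.00153). The adaptor gene Lcp2 averaged 7.13 ± 1.09 CPM in Restricted and 10.4 ± 0.905 CPM in Control libraries, did not overlap between the diets, and fell by 0.58 ± 0.09 (adjusted p = 0.000303). Inpp5d, the lipid phosphatase that restrains the signal, fell by 0.41 ± 0.08 (adjusted p = 0.00138). Called and lower as well were Btk, Plcg2, Gab2, Vav1 and Ptpn6, while Lyn, the kinase that starts the cascade, had −0.05 ± 0.09 (adjusted p = 0.750). With the RNA integrity number as a term in 17 libraries 2 of the 16 were called, where 2.41% of all tested genes were, against 8 without it, where 8.69% were. Without the 6 libraries with muscle transcripts 5 were called, where 5.48% of all tested genes were.

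Of 13 factors that feed or draw mast cells, 11 were tested, 2 fell and 0 rose, where 7.21% of all tested genes were lower and 6.13% higher. Kitl, which encodes stem cell factor, averaged 37.3 ± 8.30 CPM in Restricted and 35.1 ± 2.83 CPM in Control libraries, with a log2 fold change of 0.02 ± 0.11 (adjusted p = 0.942). Il33 averaged 10.6 ± 4.20 CPM in Restricted and 9.68 ± 4.11 CPM in Control libraries, with a log2 fold change of −0.05 ± 0.27 (adjusted p = 0.927). Csf2rb, the shared receptor chain for interleukin-3, interleukin-5 and GM-CSF, fell by 0.29 ± 0.07 (adjusted p = 0.0103). Cxcl12, a chemokine, fell by 0.25 ± 0.08 (adjusted p = 0.0397), a call that was lost without any 1 of Restricted 1, 2, 5 or 9 or Control 1, 2, 6 or 7 (adjusted p of 0.0514 to 0.163) and without the 6 libraries with muscle transcripts (0.103).

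Of 12 genes that receive or break down mast cell mediators, 10 were tested and 1 was called by edgeR's quasi-likelihood test, where 13.3% of all tested genes were. Hnmt, which inactivates histamine inside cells, averaged 29.6 ± 4.56 CPM in Restricted and 22.3 ± 1.68 CPM in Control libraries and rose by 0.35 ± 0.08 in log2 units (adjusted p = 0.00647). It ranged from 21.7 to 36.6 CPM in Restricted and from 20.2 to 25.6 CPM in Control libraries, and was not called without the 6 libraries with muscle transcripts (adjusted p = 0.0814) or with the RNA integrity number as a term (0.140). The histamine receptor gene Hrh2 had −0.40 ± 0.14 (adjusted p = 0.0564, and 0.0414 by DESeq2, which called it; 0.0258 to 0.658 over all alternatives). By the contamination label 1 of the 10 was called: Aoc1, the diamine oxidase that breaks down histamine outside cells, was higher in Yes libraries at 0.994 ± 0.346 CPM than in No libraries at 0.133 ± 0.0815 CPM (SD, n = 10 each), where 5.27% of all tested genes were called. The No libraries held at most 0.314 CPM of Aoc1, under the low-count limit of 0.437 CPM, so it entered the fit through the Yes libraries, and its values are a description.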

How the data were processed

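The table deposited by the authors holds raw, unfiltered whole-number counts of reads for each gene, judged from its values. Per the labels' protocols, RNA was isolated with Trizol and an RNeasy column, libraries followed the Universal Plus mRNA-seq protocol, and 52-base read pairs were sequenced on a NovaSeq. That text names QUAD as the source, while the tissue label says eWAT, which was used. Listed in the submitters' processing notes, without role or order, are STAR, Salmon, bcl2fastq 4.0.3 and the build GRCm38. Counting tool, annotation release and strand setting: not given in the sources used here. Reads of near-identical genes could therefore be split.

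Counts were fitted in edgeR 4.0.16 (R 4.3.3): TMM factors, filterByExpr by diet with a minimum count of 10, a robust quasi-likelihood fit with contamination label and diet, two-sided tests and Benjamini-Hochberg adjustment over 15986 genes at 0.05. A second fit added their product. The biological coefficient of variation was 0.179, and genes near 1 CPM carry counting error beside it. Each pair of libraries on the same diet differed beyond counting noise (the lowest chi-square was 9.93 times its degrees of freedom). Likeness used log2 CPM with a prior count of 2. The fit was tested on simulated data. Alternatives were RLE factors, DESeq2 1.42.0, other low-count filters, other terms, subsets of libraries and leaving out each library. Sequences came from RefSeq promoters, and shared 52-base windows from GENCODE vM21 transcripts. Figures used Python 3.11.15 with matplotlib 3.10.9.

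The genes, gene lists and tests were chosen with earlier results of these data known. Named are all 9 genes, of each other list of mast cell biology up to 4 genes with the smallest unadjusted p for diet and any gene called, the 5 genes most like Mcpt4 and Cpa3 (1 of those for Mcpt4 is not reported here), and genes with counts in both protease loci; Lyn, Mitf, Gata2, Srgn, Slc18a2, Cyp11a1, Kitl, Il33, Hrh2, Aoc1, Spata18, Sycp3, Dcn, Pdgfra and the scarce mast cell genes were named after their values were seen. Marker lists of basophils, macrophages, progenitors, adipocytes, germ cells and skeletal muscle are given by counts or sums, which departs from the rule that any gene called is named. The other lists are given here by diet calls in edgeR. Of 5 tested neutrophil markers 2 fell (Csf3r and Camp), and of 6 lymphocyte markers 1 fell (Cd4), where 7.21% of all tested genes were lower. In the eosinophil, endothelial, mesothelial and epididymis lists 0 were called, where 13.3% of all tested genes were.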

Additional observations from a re-analysis of the deposited data

How the results depend on the processing

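Of the 7 tested genes, 5 were called by diet with 20 libraries, 5 in each of 20 fits that left out one library, and 4 to 6 under the other alternatives, which include 5 with the replicate block. The 6 came without a low-count filter, when all 9 were tested, and the stricter filter, with 6 tested, gave 4. Of 7 tested, 4 were called with the RNA integrity number and 4 without the 6 libraries with muscle transcripts. Of 8 tested, 4 were called when the Yes libraries were fitted by themselves and 5 when the No libraries were. In the main fit 13.3% of all tested genes were called by diet, and the shares in the other fits are not set beside these counts. Since the diet contrast chose the genes, nothing is read from their counts by diet. Hdc was the 1 gene called by label in every fit that held the label, and 0 had a diet by label product called in any fit that held the product. Hdc's log2 fold change by label was 1.58 to 1.91 without single libraries and 1.501 to 2.084 under the other alternatives. The diet fold change of Mcpt4 was −1.55 to −1.34 without single libraries, and −1.16 ± 0.15 with the RNA integrity number in the model of 17 libraries, against −1.34 in the same 17 without it. That of Cma1 was −1.004 and −1.21 in these 2 fits. Of the other mast cell genes, 8 were called in the main analysis, 6 to 8 without single libraries and 8 with the replicate block. The count was 1 with the RNA integrity number in 17 libraries (6 in the same 17 without it). It was 1 in libraries marked Yes alone, 2 in libraries marked No alone and 4 without the 6 libraries with muscle transcripts. The shares of all tested genes called in the fits of 17 libraries and without the 6 libraries are given above. For the other alternatives no such share is set beside the counts, so nothing is read from them. The lower counts come from fits of fewer libraries, and the 2 fits of 17 libraries differ in the RNA integrity term. The cause of the lower counts was not tested. The replicate numbers did not pair the libraries: same-numbered libraries of the 2 diets correlated at −0.096 to 0.093 over 10 pairs, with 0 above 0.1, and 0 Restricted libraries correlated best with their own number. Hdc's diet fold change was −0.36 without the label in the model. Low counts limit Ms4a2, Fcer1a and Tpsab1.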
